A study of Mus musculus with 199 samples.

Results

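The neuroendocrine transcription factors described here were 9 genes, Insm1, Neurod1, Pou3f2, Nfib, Foxa1, Foxa2, Prox1, Myt1 and Rest. They were taken by symbol from the 31581 genes of one count table, and all 9 were found. The table held 199 mouse RNA sequencing libraries, from small-cell lung cancer lines and from cells labelled as preceding that cancer: 116 libraries of 10 laser-captured cells, 79 pool-and-split controls, which by their name are captured material mixed and divided again, and 4 bulk cell line libraries. Levels are given as CPM, the count of a gene per 1000000 counts assigned to genes, with spike-in RNA left out.

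The tumour cells were KP1, a line explanted from small-cell lung cancer with the genotype Rb1-/-Trp53-/-. KP1 cells were captured from spheroids in culture (28 libraries), from colonies in the liver of nude mice, which lack mature T cells (33 libraries), and from liver colonies in F1 mice (31 libraries). The controls were 20, 35 and 24 pool-and-split libraries of the same 3 settings. A further 24 captures came from spheroids of RPC, explanted cells labelled as preceding small-cell lung cancer, with the genotype Rb1-/-Trp53-/-p130-/+Crebbp-/-. The bulk libraries were 1 each of KP1, KP2 (Rb1-/-Trp53-/-Ptch1+/lacz), KP3 (Rb1-/-Trp53-/-Axin2+/lacz) and KP5 (Rb1-/-Trp53-/- BAT-GAL). All groups thus shared the loss of Rb1 and Trp53. KP1 and RPC were 1 line each, the parents of the F1 mice, the ages and the number of animals or cultures were not given in the sources used here, and the p-values measure only the spread between these captures. The nude and F1 hosts differed in strain as well as in immune status, and these cannot be told apart.

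Small-cell lung cancer is a tumour of neuroendocrine character, and its cells carry secretory granules and neuron-like genes. INSM1 is a zinc finger repressor that directs neuroendocrine differentiation, while NEUROD1 is a basic helix-loop-helix activator of neuronal and endocrine genes and binds DNA at E boxes together with E proteins. POU3F2 is a POU-domain factor of neurons, NFIB opens chromatin and is known from mouse models to promote metastasis of this tumour, and FOXA1 and FOXA2 are forkhead pioneer factors of lung, liver and other endoderm. PROX1 is a homeodomain factor of lymphatic, hepatic and neuroendocrine cells, MYT1 is a zinc finger factor of neuronal and endocrine progenitors, and REST represses neuronal genes in cells that are not neurons.

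On the GRCm38 annotation, Insm1 lies at chr2:146221921-146225020 on the plus strand and Neurod1 at chr2:79452521-79456751 on the minus strand. Pou3f2 lies at chr4:22482780-22488366 and Nfib at chr4:82290173-82705750, both on the minus strand. Foxa1 lies at chr12:57540628-57546916 and Foxa2 at chr2:148042877-148046969, also on the minus strand. Prox1 lies at chr1:190118035-190170714 (minus), Myt1 at chr2:181763332-181827797 (plus) and Rest at chr5:77265491-77286432 (plus). All 9 are protein-coding genes, and counts were summed over whole genes, so exons and isoforms were not separated.

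RefSeq promoter windows of GRCm38.p6, from 250 bases before to 50 after a gene's start, were matched for 6 of the 9 members; Insm1, Nfib and Rest were the others. The windows of 3 members are shown 5′ to 3′ on the gene's strand: Neurod1 and Pou3f2, because both genes were higher in RPC, and Foxa1, because it was the only member called between the liver hosts. Capitals mark matches on either strand to the E box CANNTG or the forkhead motif TGTTTAC.
Neurod1, chr2:79456587-79456886, minus strand: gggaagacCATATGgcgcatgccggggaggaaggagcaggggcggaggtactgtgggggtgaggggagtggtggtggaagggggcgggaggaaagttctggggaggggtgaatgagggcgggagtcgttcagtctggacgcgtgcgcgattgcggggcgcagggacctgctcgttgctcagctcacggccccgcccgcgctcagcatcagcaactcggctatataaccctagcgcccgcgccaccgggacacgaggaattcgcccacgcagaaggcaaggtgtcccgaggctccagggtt
Pou3f2, chr4:22488317-22488616, minus strand: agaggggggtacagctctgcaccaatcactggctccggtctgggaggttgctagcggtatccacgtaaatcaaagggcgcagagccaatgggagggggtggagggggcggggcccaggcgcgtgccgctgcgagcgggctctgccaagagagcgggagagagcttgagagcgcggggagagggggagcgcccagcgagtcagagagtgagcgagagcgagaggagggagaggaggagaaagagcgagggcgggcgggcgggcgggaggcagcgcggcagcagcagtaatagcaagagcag
Foxa1, chr12:57546062-57546361, minus strand: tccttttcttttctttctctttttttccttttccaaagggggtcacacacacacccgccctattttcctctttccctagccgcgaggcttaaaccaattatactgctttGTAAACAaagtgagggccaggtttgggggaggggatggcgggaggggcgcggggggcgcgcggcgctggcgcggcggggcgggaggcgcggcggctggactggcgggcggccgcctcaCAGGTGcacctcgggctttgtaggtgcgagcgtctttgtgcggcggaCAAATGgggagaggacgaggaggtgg
The Neurod1 window held 1 match to CANNTG, at base 9, the Pou3f2 window none, and the Foxa1 window 2, at bases 228 and 275. The motif CANNTG stood in 72.3% of the 32851 promoter windows of the same length, so a match is common. The Foxa1 window also held 1 match to TGTTTAC, read on the opposite strand at base 110, and 3.65% of all windows held one. These matches describe the letters of the windows and were not tested as binding sites.

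Captures held 718208 to 7557773 gene counts each and the bulk libraries 17266200 to 42447973. Chga, Ddc and Uchl1, genes of the neuroendocrine effector list, had counts in every one of the 116 captures. Hepatocyte genes (12 listed, among them Alb and Apoa1) summed to 0 to 83.6 CPM in KP1 spheroids (median 1.11), where 7 of the 12 were at 0, to 33.4 to 4323 CPM in nude liver captures (median 845) and to 0 to 1946 CPM in F1 liver captures (median 198). Erythrocyte genes summed to medians of 0, 551 and 1622 CPM in spheroid, nude and F1 captures, endothelial and stellate genes to 0.236, 31.7 and 10.4 CPM, macrophage genes to 13.6, 35.4 and 60.3 CPM, and hepatocyte transcription factors other than the members to 0, 3.54 and 0.244 CPM. The part of these cells in the differences of the members was not tested beyond the hepatocyte covariate given below. Technical subsets without any label were also present. At least 0.1% spike-in counts were held by 9 of the 28 KP1 spheroid captures, 22 of the 24 RPC captures and every nude and F1 liver capture. Of the 31 F1 captures, 5 stood below a wide gap in the pseudogene Rpl19-ps11. No 2 libraries of a group agreed within sampling noise. Because counts were per gene and Rb1 had counts in 28 of 28 KP1 spheroid captures, the labelled deletions could not be checked here.

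**Figure D1:**
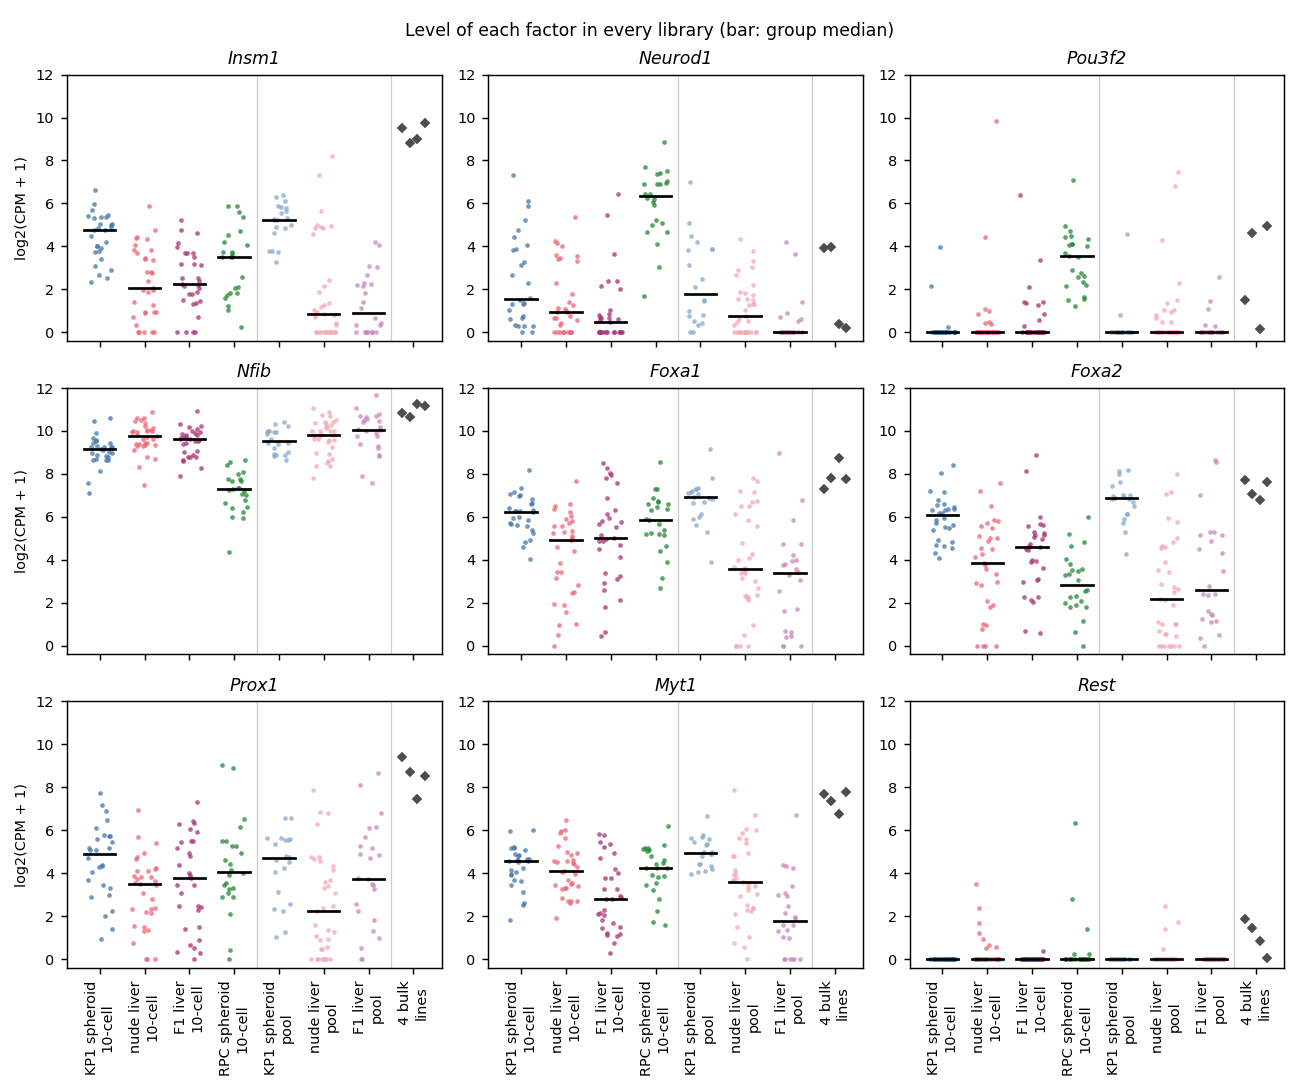
Level of each factor as log2(CPM + 1) in every library, 1 panel per gene; points are libraries, black bars are group medians and diamonds are the 4 bulk lines, from left KP1, KP3, KP5 and KP2. Neurod1 and Pou3f2 stand higher in the 24 RPC captures than elsewhere among captures, Nfib and Foxa2 stand lower there, and Rest lies at 0 in most libraries of every 10-cell group.

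The factors differed in how often they were present in the captures. Nfib had counts in all 28 spheroid, 33 nude liver, 31 F1 liver and 24 RPC captures, and Myt1 likewise had counts in every one of these. Foxa1 had counts in all captures except 1 of the nude liver, and Insm1 in 28 of 28 spheroid, 28 of 33 nude liver, 27 of 31 F1 liver and 24 of 24 RPC captures. Foxa2 had counts in 28, 29, 31 and 23 captures of these groups in the same order, and Prox1 in 28, 30, 30 and 23. Neurod1 had counts in 26 of 28 spheroid, 24 of 33 nude liver, 16 of 31 F1 liver and 24 of 24 RPC captures. Pou3f2 and Rest were the rarely detected members of KP1 cells. Pou3f2 had counts in 3 of 28 spheroid, 8 of 33 nude liver and 10 of 31 F1 liver captures, against 24 of 24 RPC captures. Rest had counts in 0 of 28 spheroid, 8 of 33 nude liver, 1 of 31 F1 liver and 5 of 24 RPC captures.

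Depth differed between groups, so detection was also counted after every library was thinned to the smallest gene total, 718149 rounded counts. Neurod1 was then detected in 24 of 24 RPC captures (100%, exact 95% interval 85.7 to 100%) and in 21 of 28 KP1 spheroid captures (75%, 55.1 to 89.3%). Its detection was 19 of 33 in nude liver (57.6%, 39.2 to 74.5%) and 10 of 31 in F1 liver (32.3%, 16.7 to 51.4%). Pou3f2 was detected in 22 of 24 RPC captures (91.7%, 73.0 to 99.0%) and in 2 of 28 KP1 spheroid captures (7.14%, 0.877 to 23.5%). These intervals are Clopper-Pearson intervals over libraries; reads carried no molecular identifiers, so intervals and limits on counts cover counting error only. A median of 7 of the 9 factors was present in a KP1 spheroid or nude liver capture, 6 in an F1 liver capture and 8 in an RPC capture. After thinning, at most 9 factors were present in an RPC capture, 8 in a KP1 spheroid or nude liver capture and 7 in an F1 liver capture; before thinning, F1 liver library 15 also held counts of all of them.

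**Figure D2:**
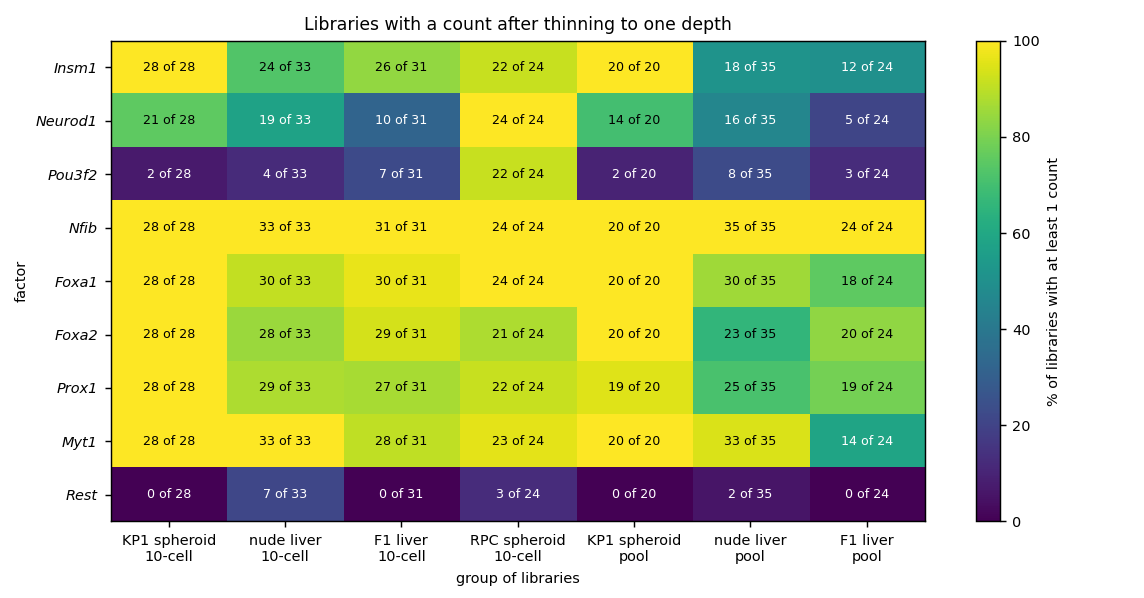
Number of libraries in which each factor had at least 1 count after thinning to 718149 gene counts, by group; colour gives the percentage. Pou3f2 was found in 22 of 24 RPC captures and in 2 of 28 KP1 spheroid captures, and Rest in no KP1 spheroid capture or pool.

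The first comparison asks how the factors differed between KP1 colonies in nude liver and KP1 spheroids. Of the 9 factors, 7 passed the filter on low counts, and 6 of these were called at an adjusted p below 0.05 with edgeR's quasi-likelihood test; over all 7834 genes tested, 33.8% were called. Of the called factors 5 were lower in nude liver (16.0% of all genes were called lower), and Nfib was higher (17.7% of all genes were called higher). The median log2 difference of the 7 tested factors was -1.42, beside -0.03 over all genes. Pou3f2 and Rest did not pass the filter.

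Insm1 ranged from 4.09 to 98.4 CPM in spheroid captures with a median of 26.5, and from 0 to 57.7 CPM in nude liver captures with a median of 3.23. The ranges overlapped, but 32 of the 33 nude liver captures lay below the spheroid median. Insm1 fell by 1.92 on the log2 scale (SE 0.50, edgeR adjusted p = 0.00169), a level 3.79 times lower in nude liver. Insm1 passed the filter through the spheroids, where 28 captures reached its minimum of 2.65 CPM and 23 were needed, against 19 nude liver captures; with no filter the log2 difference was -1.95 (edgeR adjusted p = 0.00151). Of the 169 libraries with Insm1 counts, 126 held a fractional count, which means reads shared with other loci, so its absolute level is uncertain.

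Neurod1 was uneven among the spheroid captures, from 0 to 160.2 CPM with a median of 1.91, and 1 library held 35.6% of the group's summed CPM. In nude liver it ran from 0 to 40.2 CPM with a median of 0.943, within the spheroid range. Neurod1 fell by 2.11 (SE 0.70, edgeR adjusted p = 0.0137), but without KP1 spheroid library 26 the log2 difference was -1.43 (SE 0.66) and was no longer called (edgeR adjusted p = 0.0883). With limma-voom it was -1.18 and not called (adjusted p = 0.123).

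The forkhead pair moved in the same direction. Foxa1 was between 15.6 and 289 CPM in spheroids (median 74.5) and between 0 and 201 CPM in nude liver (median 28.9), and 29 of 33 nude liver captures lay below the spheroid median. Foxa1 fell by 1.39 on the log2 scale (SE 0.41, edgeR adjusted p = 0.00514). Foxa2 was between 15.9 and 345 CPM in spheroids (median 66.6) and between 0 and 192 CPM in nude liver (median 13.4), with 30 of 33 nude liver captures below the spheroid median. It fell by 1.55 (SE 0.48, edgeR adjusted p = 0.00863). Both genes are also active in hepatocytes; hepatocyte genes, summed, were higher in these captures than in spheroids.

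Prox1 ran from 0.942 to 214 CPM in spheroids (median 28.8) and from 0 to 123 CPM in nude liver (median 10.4), and 29 of 33 nude liver captures were below the spheroid median. It fell by 1.42 (SE 0.49, edgeR adjusted p = 0.0195). Nfib was the exception in direction. It lay between 138 and 1577 CPM in spheroids (median 568) and between 178 and 1915 CPM in nude liver (median 876), and 28 of 33 nude liver captures exceeded the spheroid median. Nfib rose by 0.54 on the log2 scale (SE 0.17, edgeR adjusted p = 0.0121). In libraries with under 5% spike-in counts it was at 0.36 and not called (edgeR adjusted p = 0.0934). Myt1, at a median of 23.0 CPM in spheroids and 16.3 CPM in nude liver, had a log2 difference of -0.08 (95% interval -0.80 to 0.64) and was not called.

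The 6 calls changed with the spheroid captures compared and with an adjustment for hepatocyte genes. Against only the 9 spheroid captures with at least 0.1% spike-in counts, no factor was called, with log2 differences of -1.14 for Insm1, -1.76 for Neurod1, -1.33 for Foxa1, -1.35 for Foxa2, -0.77 for Prox1 and 0.60 for Nfib. Against the other 19, they were -2.21, -2.26, -1.45, -1.68, -1.69 and 0.46 in the same order, and 5 of the 6 were called, all except Nfib. With the summed hepatocyte level as a covariate, a level that was at least 33.4 CPM in every nude liver capture and had a median of 1.11 CPM in spheroids, no factor was called and only 141 genes were called in all; Insm1 was then at -1.01, Neurod1 at -3.26, Foxa1 at -1.14, Foxa2 at -1.48, Prox1 at -1.52 and Nfib at 0.14. The log2 differences of Neurod1 and Prox1 were thus larger with the covariate and those of Insm1, Foxa1, Foxa2 and Nfib smaller. These shifts were not tested. Fewer tumour cells in a capture and less factor RNA in each cell cannot be told apart.

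**Figure D3:**
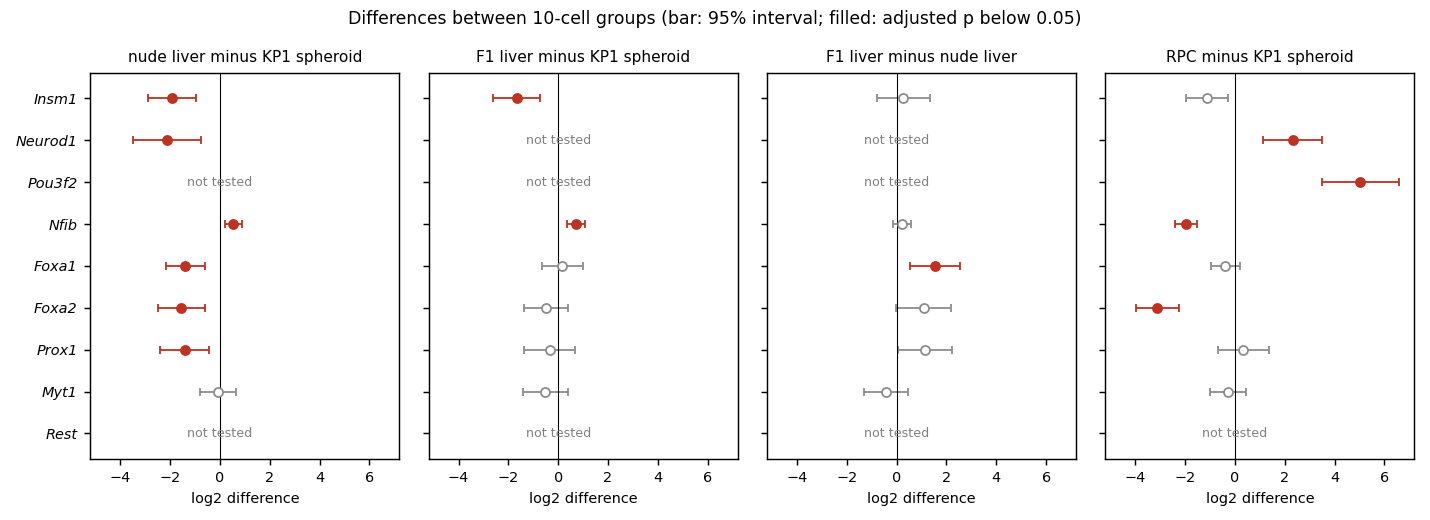
Log2 difference of each factor in the 4 comparisons of 10-cell groups, with 95% intervals as bars; filled red points have an adjusted p below 0.05 in edgeR's quasi-likelihood test. In nude liver 5 factors stand below 0 and Nfib above it, and in RPC Pou3f2 and Neurod1 stand above 0 while Nfib and Foxa2 stand below it.

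The second comparison set KP1 colonies in F1 liver against the same 28 spheroid captures, so it shares its controls with the first. The number of factors tested was 6, and 2 were called (12.6% of 7309 genes were called): Insm1 was lower (4.91% of genes were called lower) and Nfib was higher (7.73% were called higher). The median log2 difference was -0.41 over the 6 factors and 0.22 over all genes. Neurod1, Pou3f2 and Rest did not pass the filter here.

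Insm1 ran from 0 to 37.0 CPM in F1 liver with a median of 3.71, and 30 of 31 captures lay below the spheroid median of 26.5. It fell by 1.67 (SE 0.49, edgeR adjusted p = 0.0147), and with no filter, which it here too passed through the spheroids, by 1.64 (edgeR adjusted p = 0.0106). Nfib ran from 239.8 to 1948 CPM with a median of 791, overlapping the spheroid range, and rose by 0.72 (SE 0.18, edgeR adjusted p = 0.00383). Side by side, the log2 differences from spheroids were -1.92 in nude and -1.67 in F1 liver for Insm1, and 0.54 and 0.72 for Nfib. Both differences kept their direction against the 9 spheroid captures with more spike-in, at -0.83 for Insm1 and 0.88 for Nfib, but neither was called there. Against the other 19 captures they were -1.92 and 0.70, and both were called. With the hepatocyte covariate they were -1.80 and 0.41, and neither was called. For only the F1 captures low in Rpl19-ps11 they were -0.88 and 0.75, and neither was called.

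The remaining factors were not called in F1 liver. Foxa1 had a median of 31.4 CPM and reached 368 CPM, and its log2 difference from spheroids was 0.17 (95% interval -0.67 to 1.00). For Foxa1 the median and the fitted difference pointed to different sides, since 23 of 31 captures were below the spheroid median while the mean, 77.1 CPM, was close to the spheroid mean of 82.1 CPM. Foxa2 had a median of 23.1 CPM and a difference of -0.48 (-1.37 to 0.40), Prox1 a median of 12.7 CPM and a difference of -0.34 (-1.37 to 0.69), and Myt1 a median of 6.03 CPM and a difference of -0.51 (-1.42 to 0.39). The intervals of Foxa2, Prox1 and Myt1 include a difference of -1 on the log2 scale, and that of Foxa1 does not. With limma-voom, which moved the median of all genes to -0.44, Foxa1 stood at -0.96, Foxa2 at -1.50 and Myt1 at -1.35, and the last 2 were called. Neurod1 had a median of 0.385 CPM in F1 liver, and F1 library 33, at 87.1 CPM, held 53.5% of the group's summed CPM.

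The third comparison tested the hosts against each other. Of 6 factors tested, 1 was called (18.4% of 7064 genes were called; 10.5% were called higher in F1 and 7.90% lower): Foxa1 was higher in F1 liver. Foxa1 ran from 0.368 to 368 CPM in F1 liver and from 0 to 201 CPM in nude liver, so the ranges overlapped widely and the medians, 31.4 and 28.9 CPM, lay close together. The log2 difference was 1.55 (SE 0.51, edgeR adjusted p = 0.0229), and 17 of 31 F1 captures lay above the nude liver median. In F1 liver the lower and upper quartiles were 8.92 and 74.4 CPM, against 4.73 and 51.1 CPM for nude liver. The call was lost in 5 of 15 alternative fits, among them the one with the hepatocyte covariate (1.57, edgeR adjusted p = 0.0624), while the difference stayed between 1.20 and 1.68. In pool-and-split libraries the mean ran the other way, as given below.

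Prox1 and Foxa2 were at 1.15 (SE 0.55, edgeR adjusted p = 0.139) and 1.09 (SE 0.57, edgeR adjusted p = 0.18) and were not called. Insm1 was at 0.27 (95% interval -0.78 to 1.33), Nfib at 0.21 (-0.15 to 0.56) and Myt1 at -0.41 (-1.29 to 0.47). The interval of Nfib is narrow, and that of Insm1 includes a difference of 1 on the log2 scale.

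Rest and Pou3f2 were under the filter in all 3 KP1 comparisons. Rest was at 0 counts in all 28 KP1 spheroid captures, which, taken over all gene counts of the group, allows up to 0.0241 CPM (3 counts). This limit covers counting error only, and the KP1 bulk library, made without the capture amplification, held Rest at 2.72 CPM. Rest was also at 0 in all 20 spheroid pools. In nude liver its 8 positive captures reached 10.3 CPM, and library 14 held 50.5% of the group's summed CPM. In F1 liver the single positive capture held 1 count. Because the spheroid group was at 0 in every capture and Rest did not pass the filter, no test of this difference is reported. REST is expressed by most cells that are not neurons, and hepatocyte genes were higher in the same captures; their part in these counts was not tested.

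In the same unfiltered fit Pou3f2 was called higher in nude liver (log2 difference 5.96, edgeR adjusted p = 7.49e-05), but nude liver library 33, at 907 CPM, held 97.4% of the group's summed CPM. Without that library the difference was 0.96 (SE 0.91, edgeR adjusted p = 0.398). The next highest nude liver capture was at 20.7 CPM. In F1 liver 80.1% of the Pou3f2 signal likewise sat in library 10, at 82.0 CPM, and the unfiltered difference from spheroids went from 2.81 to 1.21 without it (edgeR adjusted p = 0.354). Between the hosts the unfiltered difference of Pou3f2 was -3.02 in F1 against nude liver (edgeR adjusted p = 0.0324), and without nude liver library 33 it was 1.86 and not called (edgeR adjusted p = 0.141). Among the captures, high Pou3f2 in KP1 colonies was thus found in single libraries. In nude liver pools Pou3f2 had counts in 13 of 35 libraries, with pool 10 at 178 CPM and pool 14 at 113 CPM. The highest F1 liver pool was at 4.90 CPM and the highest spheroid pool at 23.2 CPM. Of 69 libraries with Pou3f2 counts, 45 held fractional counts, so part of these reads is shared with other loci.

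The fourth comparison set spheroid captures of RPC against those of KP1. The number of factors tested was 8, and 4 were called (21.9% of 8600 genes were called): Pou3f2 and Neurod1 were higher in RPC (10.3% of genes were called higher) and Nfib and Foxa2 were lower (11.6% were called lower). Pou3f2 and Neurod1 passed the filter only through RPC, the group in which they were high, so the count describes the factors tested and is not support for a difference. The calls of Nfib and Foxa2 held in each of the 16 alternative fits. Over all genes 885 were called higher and 1000 lower, and with relative log expression scaling 1131 and 826. The lines differ in origin and in their p130 and Crebbp alleles, and these cannot be told apart. Spike-in share also differed, at 0.1% or more in 22 of 24 RPC and 9 of 28 KP1 captures.

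Pou3f2 lay between 1.32 and 136 CPM in RPC captures (median 10.6) and between 0 and 14.7 CPM in KP1 spheroids (median 0). Only 3 KP1 captures held counts; those at 14.7 and 3.42 CPM lay within the RPC range and the one at 0.188 CPM below it. Pou3f2 reached the filter's minimum of 2.10 CPM in 20 RPC captures, the number needed, and in 2 KP1 captures. Its fitted log2 difference of 5.02 (SE 0.79), or 4.36 (SE 0.73) without RPC library 9, the highest, is therefore given as a description. Over the alternative fits it ran from 4.36 to 9.28, the highest against the 9 KP1 captures with more spike-in, which were all at 0, so that value has no meaning as a size. In the fit with no filter the log2 difference was 5.07 (edgeR adjusted p = 2.25e-06). Neurod1 lay between 2.25 and 467 CPM in RPC (median 80.1), and all 24 RPC captures exceeded the KP1 spheroid median of 1.91 CPM. It rose by 2.31 (SE 0.61, edgeR adjusted p = 0.00317), about 4.97 times, and the log2 difference ran from 2.04 to 4.16 over the alternative fits, with 4.03 from limma-voom. The filter's minimum was reached by 24 RPC and 13 KP1 captures, and with no filter the log2 difference was 2.31 (edgeR adjusted p = 0.00173). The 2 ranges still overlapped, since single KP1 captures reached 160.2 CPM.

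Nfib lay between 19.7 and 406 CPM in RPC (median 154), and all 24 captures lay below the KP1 spheroid median of 568 CPM. It fell by 1.97 (SE 0.22, edgeR adjusted p = 6.28e-11). Foxa2 lay between 0 and 61.9 CPM in RPC (median 6.27), with all 24 captures below the KP1 spheroid median of 66.6 CPM, and fell by 3.11 (SE 0.44, edgeR adjusted p = 6.84e-08), a level 8.64 times lower. The other forkhead factor was not called: Foxa1 had medians of 57.3 CPM in RPC and 74.5 CPM in KP1, a log2 difference of -0.38 (95% interval -0.98 to 0.22).

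Insm1 lay between 0.177 and 58.5 CPM in RPC (median 10.5), and 20 of 24 captures were below the KP1 spheroid median. Its log2 difference, -1.12 (SE 0.43), just missed the threshold (edgeR adjusted p = 0.0511) and passed it in 6 of 16 alternative fits; it was -0.34 against the 9 KP1 captures with more spike-in and -1.37 against the other 19. Prox1 had a median of 15.9 CPM and a difference of 0.33 (95% interval -0.70 to 1.35), and Myt1 a median of 18.1 CPM and a difference of -0.28 (-1.01 to 0.46). Rest was present in 5 of 24 RPC captures, and library 9, at 79.1 CPM, held 90.9% of the group's summed CPM; the next was at 5.90 CPM. That library was also the highest for Pou3f2, so the 2 genes were high in the same capture.

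By median level in the 10-cell groups, Insm1 ran from KP1 spheroids over RPC and F1 liver to nude liver, and the steps from spheroids to RPC and from F1 to nude liver were not called. Foxa1 and Prox1 had the same order, in which only the last step of Foxa1 was called. Myt1 ran from spheroids over RPC and nude liver to F1 liver, and neither the first step nor the last was called. Foxa2 ran from spheroids over F1 and nude liver to RPC, and its steps from spheroids to F1 and from F1 to nude liver were not called. Neurod1 ran from RPC over spheroids and nude liver to F1 liver, and its last step was not tested. Nfib ran in another order, from nude and F1 liver, between which it was not called, over spheroids to RPC. RPC and the liver groups were not tested against each other.

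Pool-and-split libraries gave the level of the same settings with the variation of the method in view. Insm1 had a mean of 40.0 ± 21.5 CPM in spheroid pools (SD, n = 20), 19.7 ± 55.5 CPM in nude liver pools (n = 35) and 3.14 ± 4.79 CPM in F1 liver pools (n = 24). Foxa2 had 127 ± 77.2, 24.0 ± 51.7 and 48.3 ± 108 CPM in the same order. Nfib had medians of 740.1, 912 and 1069.6 CPM. As in the captures, Insm1 and Foxa2 had higher means in spheroid pools than in either liver and Nfib a lower median; for Insm1 and Foxa2 the SD of the liver pools exceeded the mean. The mean of Prox1, but not its median, went the other way in F1 liver. Its mean was 49.9 ± 94.6 CPM in F1 pools and 31.0 ± 27.5 CPM in spheroid pools, against 28.0 ± 36.1 CPM and 41.8 ± 48.5 CPM in captures. The F1 pool mean rested on pools 1 and 13, at 401 and 274 CPM, and the medians were 12.4 CPM in F1 and 25.0 CPM in spheroid pools, beside 12.7 and 28.8 CPM in captures. The mean of Foxa1 was 134 ± 115 CPM in spheroid pools, 3.86 times that of F1 pools, while the captures of these settings had a fitted log2 difference of 0.17. Without nude liver pool 18, at 293 CPM, the mean of Insm1 in nude liver pools was 11.7 CPM. Foxa1, called higher in F1 than in nude liver captures, had a mean of 34.7 ± 101 CPM in F1 pools and of 41.7 ± 60.2 CPM in pools from nude liver. F1 pool 13, at 495 CPM, held 59.4% of the summed Foxa1 CPM of its group, and the mean of the others was 14.7 CPM. Levels in captures and pools of the 3 settings were not tested against each other.

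Whether captures vary more than pools was tested with limma on how far each library, in log2(CPM + 1), stood from the median of its group, taken without sign. No factor was called in any setting: 0 of 7 tested in spheroids (0% of 8602 genes were called, 508 at an unadjusted p below 0.05), 0 of 7 in nude liver (0.777% of 9397 genes) and 0 of 6 in F1 liver (1.48% of 8759 genes). At an unadjusted p below 0.05 the limma counts were 0, 2 and 0 factors, and centring on the group mean also called 0. The 2 were Prox1 and Myt1 in nude liver, where captures varied less than pools, by -0.62 (SE 0.29, limma adjusted p = 0.307) and -0.50 (SE 0.24, limma adjusted p = 0.312). In spheroids Neurod1 deviated by a mean of 1.77 in captures and 1.71 in pools, so its counts were also uneven in pooled material. Prox1 deviated by 1.40 in spheroid captures and 1.33 in pools, and Nfib by 0.51 and 0.49. A limma result that misses the threshold does not show that captures and pools vary alike; the interval for Neurod1 in spheroids was -0.72 to 0.83.

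In the bulk lines, with 1 library each and no replicate check, Insm1 was at 718 CPM in KP1, 855 in KP2, 448 in KP3 and 518 in KP5. Nfib was at 1857, 2315, 1607 and 2439 CPM in the same order, and Myt1 at 206, 222, 163 and 109 CPM. Neurod1 separated the lines: it was at 14.2 CPM in KP1 and 14.7 CPM in KP3, but at 0.165 CPM in KP2 and 0.329 CPM in KP5. Pou3f2 was at 30.2 CPM in KP2 and 23.8 CPM in KP3, and at 1.85 CPM in KP1 and 0.132 CPM in KP5. KP3 was thus the only bulk line with both Neurod1 and Pou3f2 above 10 CPM, and KP5 had neither. Foxa1 was at 156, 219.9, 223 and 425 CPM, Foxa2 at 211, 196, 133 and 111 CPM and Prox1 at 673, 364, 427 and 178 CPM in KP1, KP2, KP3 and KP5. Rest was at 0.0471 to 2.72 CPM and highest in KP1. The bulk libraries were made without the capture amplification, so their levels were not compared with those of captures.

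Basic helix-loop-helix factors such as NEUROD1 work with E proteins, and ID proteins bind E proteins and keep them off DNA. The counts of list genes from here on are read beside the share of all genes called, which was 33.8% in nude liver (17.7% higher, 16.0% lower), 12.6% in F1 liver (7.73% higher, 4.91% lower), 18.4% between the hosts (10.5% higher in F1, 7.90% lower) and 21.9% in RPC (10.3% higher, 11.6% lower). Genes low in a group could pass the filter through the other group alone. Among them was Id3, which reached its minimum in 28 of 28 spheroid and 7 of 33 nude liver captures. Counts that hold such genes describe the genes tested and are not support for a difference. Of the list of 10 E protein, Id and Hes genes, 7 were tested in nude liver, and 3 were called lower (16.0% of all genes) and 2 higher (17.7%) than in spheroids; in F1 liver 4 of 7 were called lower (4.91% of all genes) and 1 higher (7.73%). Between the hosts 1 of 4 tested was called (18.4% of all genes), Tcf12, lower in F1 liver by 2.47, and this call was lost in 6 of 15 alternative fits. Nude liver library 35 held 55.5% of that group's summed Tcf12 CPM, and without it the log2 difference was -1.14 (SE 0.56, edgeR adjusted p = 0.158). The list's median log2 difference was 1.01 in nude liver and -1.57 in F1 liver, beside -0.03 and 0.22 over all genes; each is the value of Tcf12, the middle gene of a list whose members went both ways. All 3 tested Id genes fell in both livers. Id3 had a median of 203 CPM in spheroids and of 0 in both livers, with fitted log2 differences of -5.12 (SE 0.71) in nude and -4.60 (SE 0.70) in F1 liver. It passed the filter through the spheroids, and with no filter the differences were -5.14 (edgeR adjusted p = 3.62e-08) and -4.59 (edgeR adjusted p = 1.88e-06). Id1 fell by 4.01 and 3.04, and Id2 by 2.70 in each. Id2 also passed only through the spheroids. Id1 reached the filter's minimum in 22 of 28 spheroid, 4 of 33 nude liver and 7 of 31 F1 liver captures. With no filter Id1 was at -4.01 and -3.03, and Id2 at -2.76 and -2.67.

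Hes6, which opposes the Notch effector Hes1, rose by 1.35 (edgeR adjusted p = 0.000861) in nude and 1.45 (edgeR adjusted p = 0.00665) in F1 liver, from a spheroid median of 93.6 CPM to 274 and 147 CPM. Tcf4, an E protein, rose by 1.34 in nude liver. Tcf12, another E protein, fell by 1.57 in F1 liver, a call lost in 6 of 17 alternative fits. In RPC, 1 of 7 tested genes of the list was called higher (10.3% of all genes) and 2 lower (11.6%): Id1 rose by 2.37 (SE 0.46, edgeR adjusted p = 7.85e-05), from a median of 9.11 to 185 CPM, while Id2 fell by 2.70 and Id3 by 2.44. Id1 thus went the other way from Id2 and Id3 in RPC, and all 3 fell in each liver. In RPC Id2 passed the filter only through KP1, and with no filter was at -2.68.

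**Figure D4:**
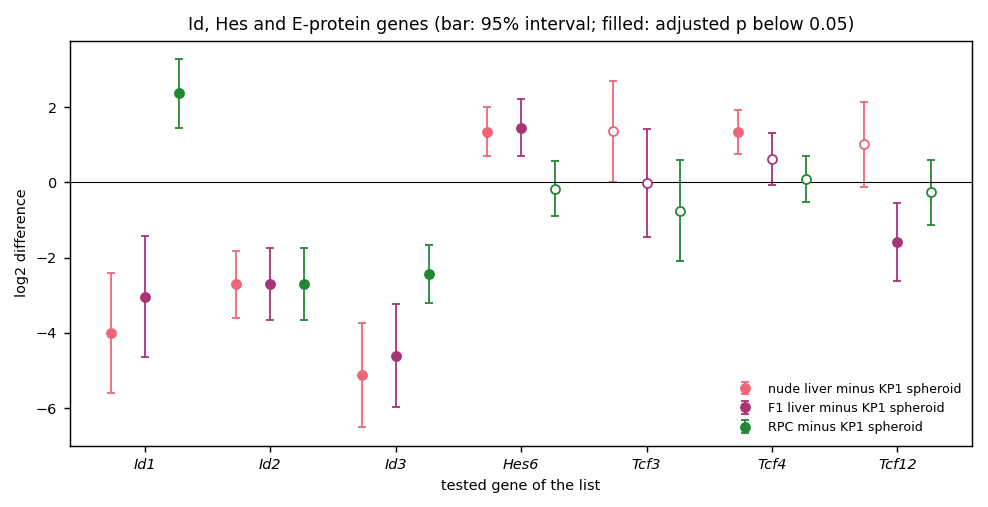
Log2 difference from KP1 spheroids of the tested Id, Hes and E-protein genes in nude liver, F1 liver and RPC captures, with 95% intervals as bars; filled points have an adjusted p below 0.05 in edgeR's quasi-likelihood test. Id1, Id2 and Id3 lie below 0 in both livers, and Id1 lies above 0 in RPC.

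Paralogues of the members were also counted. Of 14 listed, 5 were tested in nude liver, and 4 were called higher (17.7% of all genes) and 1 lower (16.0%). Nfic rose by 2.30 (edgeR adjusted p = 5.92e-05), from a median of 5.59 to 23.6 CPM, and Nfix by 1.42, from 10.5 to 26.1 CPM. The call of Nfix was lost in 4 of 19 alternative fits. Nfic, Nfia and Nfix passed the filter only through nude liver, and with no filter were at 2.19, 3.02 and 1.38. Nfia was called at 3.23, but its medians were 6.29 CPM in spheroids and 4.89 CPM in nude liver, and its sign changed with the hepatocyte covariate (-0.42). Without nude liver library 32, which held 45.9% of its summed CPM, Nfia was at 2.30 (edgeR adjusted p = 0.00283). Myt1l, a neuronal paralogue of Myt1, rose by 3.65 from a median of 0 to 3.99 CPM and no longer passed the filter without library 29, while St18, the other paralogue, fell by 1.82 from 38.0 to 10.0 CPM. In F1 liver 1 of 4 tested paralogues was called higher (Nfic, 1.89; 7.73% of all genes) and 1 lower (St18, -1.95; 4.91%). Against nude liver, 1 of 5 was called, lower in F1 (Nfia, -3.44, or -2.54 without nude liver library 32; 7.90% of all genes). Nfic in F1 liver was no longer called without F1 library 13 (1.48, edgeR adjusted p = 0.0548). In F1 liver against spheroids Nfic passed the filter only through F1 liver and St18 only through spheroids. With no filter they were at 1.89 and -1.94. In RPC 2 of 4 were called, both lower (11.6% of all genes): Nfix fell by 3.84, beside the fall of Nfib, and St18 by 1.13. Nfix passed the filter only through KP1 (-3.84 with no filter), and the call of St18 was lost in 3 of 16 alternative fits.

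The list of other lineage factors held 11 genes. In nude liver 3 of 7 tested were called, all higher (17.7% of all genes): Sox4 (5.01), Sox11 (0.89) and Onecut2 (1.66), all factors of neural or endocrine progenitors. Sox4 had a median of 18.5 CPM there against 0.998 CPM in spheroids. Sox4 and Onecut2 passed the filter only through nude liver, and with no filter their log2 differences were 4.77 and 1.60. Nude liver library 32, at 3647 CPM, held 75.2% of the group's summed Sox4 CPM, and without it the log2 difference was 3.03 (SE 0.60, edgeR adjusted p = 4.16e-05). In F1 liver none of 7 was called by edgeR, with 1 at an unadjusted p below 0.05, and DESeq2 and limma-voom also called 0. Against nude liver 2 of 6 tested were called, both lower (7.90% of all genes): Sox4 fell by 4.79 (2.93 without nude liver library 32) and Sox11 by 0.60 in F1 liver, and the call of Sox11 was lost in 7 of 15 alternative fits. In RPC, 2 of 7 tested were called higher (10.3% of all genes), Sox4 (3.37) and Sox11 (0.75), and 1 lower (11.6%), the MYC family oncogene Mycl. Mycl had counts in 5 of 24 RPC and 28 of 28 KP1 captures and passed the filter through KP1. Sox4 passed it only through nude liver in the comparison of hosts and only through RPC against KP1. With no filter Sox4 was at -4.57 in F1 against nude liver and at 3.36 in RPC.

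Corepressors through which REST acts were present in KP1 spheroid captures, where Rest itself had no counts. In nude liver 3 of 9 tested were called, all higher: Ehmt2 (1.78), Ehmt1 (1.90) and Sin3a (1.57), beside 33.8% of all genes called and 17.7% called higher. The call of Sin3a was lost in 13 of 19 alternative fits and that of Ehmt1 in 6 of 19. Both passed the filter only through nude liver, and with no filter were at 1.54 and 1.84. In F1 liver none of 9 was called against spheroids by edgeR (3 at an unadjusted p below 0.05, 2 called by DESeq2 and 3 by limma-voom), and Ehmt2 alone was called against nude liver (1 of 9, beside 18.4% of all genes), lower by 1.18. In RPC 3 of 10 were called higher (10.3% of all genes), Rcor2 (2.89), Kdm1a (medians of 49.5 CPM in RPC and 8.70 CPM in KP1) and Sin3b (0.78), and 1 lower (11.6%), Hdac1 (-2.85). The call of Sin3b was lost in 4 of 16 alternative fits. Hdac1 passed the filter only through KP1, and with no filter was at -2.84.

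Of 14 listed targets of REST, 5 to 8 were tested in a comparison. In each liver 1 of 6 tested was called against spheroids, Snap25, a synaptic fusion protein, at -1.04 in nude and -1.37 in F1 liver, beside 33.8% and 12.6% of all genes. These calls of Snap25 were lost in 8 of 19 and 4 of 17 alternative fits. None of 5 was called between the hosts by edgeR (0 at an unadjusted p below 0.05, 1 called by DESeq2 and 1 by limma-voom). In RPC 1 of 8 was called higher (10.3% of all genes) and 1 lower (11.6%). Stmn2, a regulator of neuronal microtubules, had counts in 24 of 24 RPC captures with a median of 592 CPM and in 1 of 28 KP1 spheroid captures, so it passed the filter only through RPC, while Snap25 fell by 2.07. In RPC against KP1, Snap25 passed the filter only through KP1, and with no filter was at -2.10.

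The neuroendocrine effector genes, which code for granins, peptide processing and synaptic proteins, had 7 called lower (16.0% of all genes) and 1 higher (17.7%) of 15 tested in nude liver, and 8 lower (11.6%) and 2 higher (10.3%) of 16 tested in RPC. In F1 liver 3 were lower (4.91%) and 2 higher (7.73%) of 15 against spheroids, and 2 of 15 were higher against nude liver (10.5%). Cplx2, a complexin of synaptic vesicle release, was the gene called higher in nude liver, where it rose by 2.46 (SE 0.40, edgeR adjusted p = 9.14e-07), and it rose by 1.80 in F1 liver. Calca, the calcitonin gene, fell by 2.61 in nude liver, 4.22 in F1 liver and 5.43 in RPC. It passed the filter only through KP1 spheroids each time, and with no filter the log2 differences were -2.65, -4.21 and -5.43. Scg5, a chaperone of prohormone processing, fell by 1.98 in nude liver, and Chga, a granin, by 0.89 in F1 liver. Ddc, an enzyme of amine synthesis, fell by 0.72 in nude liver and was higher in F1 than in nude liver by 1.20. Uchl1, a neuronal ubiquitin hydrolase, fell by 0.84 in nude liver and rose by 0.70 in F1 liver, and its difference between the hosts was 1.54 (SE 0.23, edgeR adjusted p = 5.21e-07). In RPC Chga fell by 2.38 (edgeR adjusted p = 1.23e-13), Pcsk1 by 5.16 and Resp18 by 2.94, while Scg2 rose by 3.48 and the adhesion molecule Ncam1 by 1.37. Pcsk1 and Resp18 passed the filter only through KP1 and Scg2 only through RPC. With no filter these 3 genes were at -5.15, -2.94 and 3.41. Of 9 genes of a non-neuroendocrine state, 1, Vim, which stromal cells also express, was tested and called higher in both livers (2.00 and 2.52; calls lost in 5 of 19 and 8 of 17 alternative fits), and none was tested in RPC.

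Within each 10-cell group the factors varied together only weakly. Over the pairs of factors with counts in at least 50% of captures, the median Spearman correlation of log2(CPM + 1) was 0.13 in KP1 spheroids (21 pairs, 28 captures), 0.23 in nude liver (21 pairs, 33 captures), 0.20 in F1 liver (21 pairs, 31 captures) and 0.17 in RPC (28 pairs, 24 captures). Insm1 and Foxa1 were positively correlated in all 4 groups, at 0.42, 0.56, 0.43 and 0.66 in the same order. The pair was also positively correlated in pool-and-split libraries, at 0.47 in spheroid, 0.32 in nude liver and 0.31 in F1 liver pools. Over the pairs of factors in these pools the medians were 0.31, 0.15 and 0.10, that of spheroid pools above that of spheroid captures. In RPC Neurod1 and Nfib stood at 0.61 and Nfib and Prox1 at -0.47. These values share library depth and amplification among their points and are descriptions.

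The genes whose ranks over captures were most like a factor's were found by the mean Spearman correlation over the 4 groups, over 4970 genes. For Insm1 they were Srsf7 (0.58), mt-Atp6 (0.56) and Hnrnpa3 (0.55), and for Neurod1 Elp2 (0.46), Gdi2 (0.45) and Blcap (0.44). For Nfib they were Luc7l3 (0.45), Timm29 (0.45) and Sox11 (0.44), and for Foxa1 Abhd10 (0.49), Lamtor1 (0.49) and Hnrnpu (0.48). For Foxa2 they were Rimkla (0.46), Ralgapa1 (0.44) and Ncbp2 (0.43), and for Myt1 Dmxl2 (0.43), Etf1 (0.41) and Rcl1 (0.39). The 2nd and 3rd for Prox1 were Wdr59 (0.53) and U2af1 (0.52). Pou3f2 and Rest had counts in too few captures for this measure.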

How the data were processed

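Expected counts of 31581 genes and 92 ERCC spike-in rows in 199 libraries were deposited by the authors; per the submitters' processing notes RSEM and Bowtie2 were used with GRCm38 and GRCh38.p12, without versions, and why the human build is named was not given in the sources used here. Per the labels' protocols, captures came from 8 µm cryosections by laser microdissection, with poly(A) PCR amplification and Nextera XT libraries, which read fragments and not molecules. Of all gene values 10.7% had decimals, and counts were rounded for tests.

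CPM were computed over rows that are not ERCC. Groups followed the labels. Differences were tested with edgeR 4.0.16 (quasi-likelihood, TMM, filterByExpr) in R 4.3.3, and spread with limma 3.58.1 on genes averaging 5 CPM or more, pseudocount 1; p-values were Benjamini-Hochberg adjusted over all genes tested and calls made at 0.05. DESeq2 1.42.0 and limma-voom were alternatives. Named were the 9 members, up to 4 called genes per list and direction with the smallest adjusted p, and the 3 genes most like a member among genes averaging 10 CPM or more; 2 genes that these rules name are not reported here. The members and lists were chosen with earlier results of these data known. The fits were checked on simulated counts. Capture numbers did not pair libraries of different groups.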

Additional observations from a re-analysis of the deposited data

Results flagged for a closer look

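The level of Foxa1 differed between the liver hosts by a test of that difference itself. F1 liver captures stood above nude liver captures by 1.55 on the log2 scale (SE 0.51, n = 31 and 33, edgeR's quasi-likelihood test, adjusted p = 0.0229), with 17 of 31 F1 captures above the nude liver median. Hepatocyte genes, summed, had a median of 845 CPM in nude liver captures and of 198 CPM in F1 liver captures. With that sum as a covariate the difference was 1.57 (edgeR adjusted p = 0.0624). The call was also lost with limma-voom (1.20, adjusted p = 0.108), and in edgeR under the replicate block (1.31, adjusted p = 0.279), in libraries under 5% ERCC (1.26, adjusted p = 0.0939) and for F1 captures low in Rpl19-ps11 (1.68, adjusted p = 0.214). Without F1 liver library 14, the highest for Foxa1, it was 1.37 (SE 0.50, edgeR adjusted p = 0.0453). Pool-and-split libraries ran the other way, with a mean of 34.7 CPM in F1 and of 41.7 CPM in nude liver pools, and the F1 mean was 14.7 CPM without pool 13.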

How the results depend on the processing

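The RPC calls of Nfib and Foxa2 kept their direction and side of the threshold under every alternative run (16 fits per factor), as did those of Neurod1 and Pou3f2, which passed the filter only through RPC. The liver calls of the factors kept their direction, and 18 nude and 6 F1 values against spheroids lost the threshold. Genes called in nude liver against spheroids (2647) were 8431 without a filter, 5193 with DESeq2 and 141 with the hepatocyte covariate; factors called (6) were 8 unfiltered, which adds Pou3f2 and Rest, the latter against a group at 0 and not read as a test, 0 with that covariate and 0 against the spike-in-rich spheroids. In F1 liver against spheroids (924) they were 5072 unfiltered, 1450 with a filter at 1 CPM, 2519 with DESeq2, 1743 with limma-voom, 510 with the covariate, 174 against the spike-in-rich spheroids and 379 for captures low in Rpl19-ps11; factors called (2) were 4 with limma-voom, 3 unfiltered (with Pou3f2, edgeR adjusted p = 0.0363), 3 under the replicate block (with Foxa2 at -1.66, edgeR adjusted p = 0.0398) and 0 in each of the last 3. Between hosts (1303) they were 6294 unfiltered, 1981 with a filter at 1 CPM, 2982 with DESeq2, 849 with the covariate and 253 for low Rpl19-ps11; factors called (1) were 3 unfiltered, again with Pou3f2 and Rest, and 0 with limma-voom, the replicate block, libraries under 5% ERCC, the covariate or low Rpl19-ps11. In RPC (1885) they were 6115 unfiltered, 4059 with DESeq2 and 3090 with limma-voom. Single libraries were left out as alternatives chosen after seeing the data, some also without a filter: genes called then ran from 2600 to 8408 in nude liver (8301 without nude library 33), from 881 to 5166 in F1 liver, from 1379 to 6265 between hosts (6160 without nude library 33) and from 1804 to 6094 in RPC, and factors called from 5 to 8, from 2 to 2, from 1 to 3 and from 4 to 5. Leaving out each of up to 35 replicates was not run, since groups held more than 5.

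Genes called by spread went from 0 to 24 in spheroids when centred on the mean, from 73 to 5 (pseudocount 10), 385 (mean) and 27 (replicate block) in nude liver, and from 130 to 49, 1094 and 11 in F1 liver.

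Directions that reversed were the following, and the cause was not tested. In nude liver Nfia went to -0.13 under the replicate block and to -0.42 with the covariate, and Myt1 to 0.14 against spike-in-rich spheroids and 0.019 without spheroid library 4 (-0.097 without library 5). In F1 liver Foxa1 went to -0.96 (limma-voom), -1.11 (block) and -0.13 (under 5% ERCC), Prox1 to 0.42 against spike-in-rich spheroids, and Foxa2 to 0.74, Nfic to -0.23 and St18 to 0.16 in captures low in Rpl19-ps11. Between hosts Foxa2 went to -0.14 with the covariate and the unfiltered Pou3f2 from -3.02 to 1.86 without nude library 33, and in RPC Prox1 to -0.59 (limma-voom) and -0.56 (block). In the spread test Neurod1 went to -0.036 and Prox1 to -0.0027 in spheroids (block), Foxa2 to 0.087 in nude liver (pseudocount 10), and in F1 liver Insm1 to 0.14, Foxa1 to 0.36 and Myt1 to 0.16 (pseudocount 10), and Foxa1 to 0.023 and Myt1 to 0.049 (block).

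Capture numbers shared between groups did not pair the libraries: of 24 to 29 same-numbered pairs per comparison of captures, 0 to 1 correlated above 0.1. With the replicate block, genes called were 2735, 897, 886 and 2019 in the 4 comparisons. In nude liver Prox1 (-1.63, edgeR adjusted p = 0.0626) and Neurod1 (-1.33, edgeR adjusted p = 0.28) were not called under the block. For Rest, a count of 0 in all KP1 spheroid captures together allows 3 counts, or 0.0241 CPM, by counting error alone. The KP1 bulk library held Rest at 2.72 CPM. Thinning took Neurod1 from 26 to 21 spheroid and from 16 to 10 F1 liver captures.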
